A study of Mus musculus with 2 samples.

Results

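The genes described here are 10 interleukin-1 family receptors and adaptors, chosen by gene symbol from the 55536 annotated genes of the tables: Il1r2, Il1r1, Il1rl1, Il1rap, Il18r1, Il18rap, Sigirr, Myd88, Irak4 and Irak1. All 10 symbols matched 1 gene each, and their 65 annotated transcripts were taken with them. The RNA, polyadenylated, came from activated regulatory T cells (T cells that express Foxp3 and restrain immune responses) of a male mouse aged 4 months of the strain Foxp3CreERT2 x Rosa26YFP, in which a tamoxifen-inducible Cre is made from the Foxp3 locus and a yellow fluorescent reporter sits at Rosa26. The labels place the origin of the cells in a bone marrow haematopoietic cell, and the sources used here give neither the sort nor the means of activation. Libraries 1 and 2 are technical replicates 1 and 2 of biological replicate 1, so there was 1 group, no second condition and no control. The SD of the 2 libraries therefore covers the spread between libraries of the same biological sample. The exact binomial and Fisher p-values weigh the difference between these libraries against counting error only. Neither the SD nor any p-value says anything about other mice.

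Receptors of this family hold immunoglobulin-like domains outside the cell, a membrane-spanning segment and, inside the cell, a TIR domain. A cytokine binds its own receptor chain (interleukin-1 binds the IL1R1 chain, interleukin-33 the ST2 chain encoded by Il1rl1, interleukin-18 the IL18R1 chain), an accessory chain joins (IL1RAP for the first pair, IL18RAP for interleukin-18), and the paired TIR domains recruit MYD88, which assembles the kinases IRAK4 and IRAK1. IL1R2 binds interleukin-1 but lacks a TIR domain and acts as a decoy, soluble forms of the receptors hold the cytokine away from the cell, and SIGIRR restrains signalling by the other receptors. In regulatory T cells, ST2 marks a tissue population that responds to interleukin-33, and IL1R2 is known from activated and follicular regulatory T cells.

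These cells held abundant RNA of the interleukin-1 decoy receptor and almost none of the signalling interleukin-1 receptor. Il1r2 averaged 110 ± 7.35 TPM (a read share scaled for transcript length and depth) and Il1r1 averaged 0.300 ± 0.0707 TPM (SD, n = 2 technical libraries). The interleukin-18 receptor chain Il18r1 (78.7 ± 3.20 TPM) and the inhibitory receptor Sigirr (142 ± 9.93 TPM) were also abundant, and the interleukin-33 receptor Il1rl1 stood at 11.8 ± 2.31 TPM. By the deposited assignment of reads, transcripts whose reading frame ends early, without the long signalling tail, held 40.7 ± 0.852% of Il18r1 TPM and 24.3 ± 0.723% of its reads.

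The sequences below show where the shortened receptor frames leave the membrane frame, since the soluble and short-tailed forms described later rest on these junctions. Lower-case letters are the last 30 coding bases shared with the membrane transcript, and capitals are what follows: in the shortened transcript its own bases through the stop codon, in the membrane transcript the bases in the same place. All are from the GENCODE M21 transcripts on mm10, plus strand, 5′ to 3′. The own bases lie at chr1:40446676-40446704 for Il1rl1, chr16:26701237-26701268 for Il1rap and chr1:40491217-40491233 for the short-tailed Il18r1. In soluble Il18r1-205 the stop codon itself spans an intron and lies within chr1:40487096-40491058. Of its capitals, T and G are still shared with the membrane transcript, which reads TGG there, and only the A is not.
Il1rl1-203 and Il1rl1-205, soluble: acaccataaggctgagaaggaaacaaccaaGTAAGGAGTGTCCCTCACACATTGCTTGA
Il1rl1-201, membrane: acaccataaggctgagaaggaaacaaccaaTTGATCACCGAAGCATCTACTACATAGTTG
Il1rap-206, soluble: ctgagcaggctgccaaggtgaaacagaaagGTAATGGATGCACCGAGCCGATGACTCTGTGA
Il1rap-201, membrane: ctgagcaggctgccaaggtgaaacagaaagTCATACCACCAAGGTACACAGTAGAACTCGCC
Il18r1-203 and Il18r1-204, short tail: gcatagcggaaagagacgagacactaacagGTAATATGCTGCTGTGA
Il18r1-201, long tail at the same junction: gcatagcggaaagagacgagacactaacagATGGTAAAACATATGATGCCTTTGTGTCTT
Il18r1-205, soluble: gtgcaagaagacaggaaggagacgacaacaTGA
Il18r1-201, membrane: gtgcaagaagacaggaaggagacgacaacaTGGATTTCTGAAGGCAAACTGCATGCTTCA

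In 3 genes, and in 5 of the 6 shortened transcripts, the own bases open with GTAA and begin directly after the end of an exon of the membrane transcript, so these frames run on into what the membrane transcript splices out as an intron. Introns usually begin with GT. Il18r1-205 instead joins 2 exons across a skipped one, and its stop codon forms at that junction.

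The depth behind the levels was 15076144 gene reads in library 1 and 14635859 in library 2, counted as rounded expected counts. The labelled cell type was checked on 5 regulatory T cell markers, all of which had 10 TPM or more in both libraries, from Foxp3 (23.8 and 20.9 TPM in libraries 1 and 2) to Tnfrsf18 (582 and 577 TPM). The means of 9 of the 10 genes exceeded 1 TPM, and all 9 did so in both libraries, while 46.2% of 22028 protein-coding genes reached 1 TPM in both. Of the same protein-coding genes, 29.5% reached 10 TPM in both. The median of the 10 means was 23.1 TPM, and the median over all protein-coding genes was 0.593 TPM.

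Among the interleukin-1 chains, Il1r2 had 115 TPM in library 1 and 104 TPM in library 2, from 1822 and 1579 reads. Il1r1 had 0.350 and 0.250 TPM, from 21 and 14 reads. The TPM of the decoy exceeded that of the signalling receptor 328-fold in library 1 (95% counting interval 214 to 531) and 418-fold in library 2 (248 to 766), a mean ratio of 373 ± 63.4 (SD, n = 2 technical libraries). In reads not scaled for length the mean ratio was 99.8, and in the separate whole-number table it was 236. Il1r1 was therefore detected, though under 1 TPM in both libraries, and its upper counting limits were 0.535 and 0.419 TPM. In bulk RNA, fewer cells of a type and less RNA per cell cannot be told apart, so these levels do not say how many cells held either RNA. Proteins encoded by Il1r2 and Il1r1 were identical at 32.6% of 313 aligned residues before the transmembrane segment. After it, the IL1R2 chain has 29 residues and the IL1R1 chain 218.

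The accessory chain Il1rap, which both interleukin-1 and interleukin-33 receptors need to signal, had 6.69 TPM in each library, from 330 and 308 reads. Il1r2 exceeded it 17.2-fold in library 1 (interval 15.3 to 19.4) and 15.6-fold in library 2 (13.8 to 17.7). That ratio depended on how length was treated, with a mean of 5.32 in unscaled reads and 31.7 with annotated exon length. Relative to Il1r1, Il1rap was 19.1-fold higher in library 1 (12.3 to 31.3) and 26.8-fold higher in library 2 (15.7 to 49.5), or 8.80-fold and 12.3-fold higher with annotated exon length. The accessory chain thus lay between the decoy and the signalling chain in both libraries.

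For interleukin-33, Il1rl1 had 13.4 TPM in library 1 and 10.1 TPM in library 2, from 721 and 580 reads. Its TPM exceeded that of its partner Il1rap 2.00-fold (1.75 to 2.29) and 1.51-fold (1.32 to 1.74), or 3.60-fold and 3.10-fold with annotated exon length. For interleukin-18, Il18r1 had 81.0 and 76.4 TPM, and its partner Il18rap had 17.8 and 24.5 TPM. The binding chain exceeded the accessory chain 4.55-fold (4.22 to 4.91) in library 1 and 3.12-fold (2.91 to 3.35) in library 2. The 2 intervals of the interleukin-18 pair do not overlap, so the libraries differed beyond counting error in that ratio. Those of Il18r1 over Il1rl1, at 6.05-fold (5.57 to 6.57) and 7.55-fold (6.90 to 8.28), do not overlap either. The TPM of Il1rl1 also rests on deposited effective lengths of 4342 bases in library 1 and 4895 in library 2, which the intervals do not cover. In unscaled reads Il18r1 over Il1rl1 was 3.92 and 4.41, a smaller gap that was not tested.

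Sigirr, the inhibitory receptor, was the highest of the 10 genes in both libraries, with 135 and 149 TPM. The adaptor Myd88 had 63.0 and 67.5 TPM. The kinase Irak4, the first to bind MYD88, had 23.8 and 26.5 TPM, and Irak1, its substrate, had 17 and 17.1 TPM. Myd88 exceeded Irak4 2.65-fold (2.43 to 2.91) and 2.54-fold (2.33 to 2.78), and Irak4 exceeded Irak1 1.40-fold (1.26 to 1.55) and 1.55-fold (1.40 to 1.72) in TPM. The order of the 2 kinases depended on length, since Irak4 over Irak1 was 0.995 and 1.14 in unscaled reads and 0.934 and 1.07 with annotated exon length.

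From high to low the mean levels ran Sigirr, Il1r2, Il18r1, Myd88, Irak4, Il18rap, Irak1, Il1rl1, Il1rap and Il1r1, and the order was the same in both libraries. Of the 9 pairs of neighbours, 7 stood apart, with counting intervals that did not overlap in either library. Irak4 against Il18rap and Il18rap against Irak1 did not, since each pair's intervals overlapped in at least 1 library. By the deposited TPM intervals, Il18r1 (64.7 to 70.9) and Myd88 (54.3 to 65.0) overlapped in library 2. The deposited intervals of Sigirr, Il1r2, Il18r1, Myd88 and Irak4 lie wholly below their deposited TPM in both libraries. In library 1 those of Sigirr (115 to 129) and Il1r2 (97.9 to 109) stand beside a deposited TPM of 135 and 115. With annotated exon length in place of effective length, Il1r2 stood above Sigirr in both libraries, and Il18rap stood above Irak4 in the mean and in library 2 but not in library 1. In unscaled reads Il18r1 was first and Sigirr second.

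**Figure D1:**
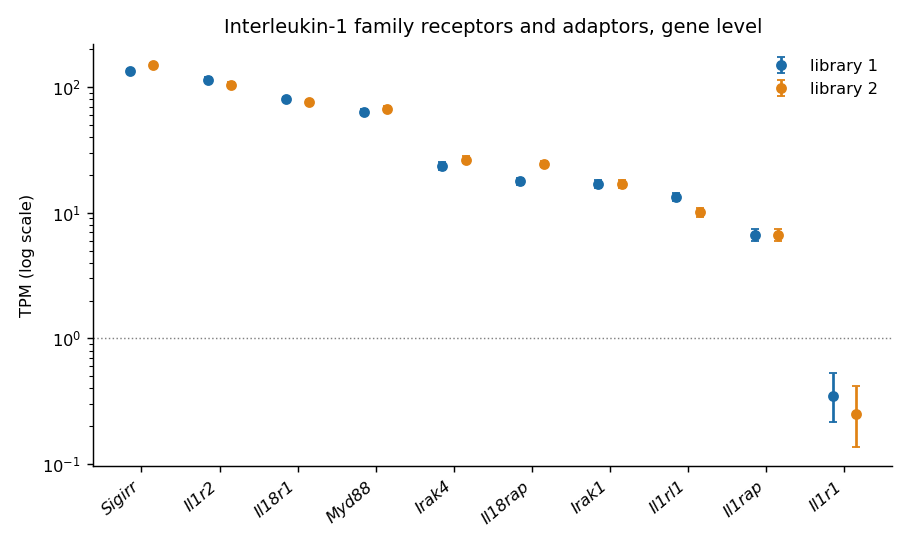
Level of each gene in TPM on a log axis, library 1 left of library 2, with bars for the 95% Poisson interval of the rounded expected count scaled to TPM and a dotted line at 1 TPM. Il1r1 lies below the line in both libraries, and the other 9 genes lie above it.

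Il1r2, Il1r1, Il1rl1, Il18r1 and Il18rap are neighbours on the plus strand of mouse chromosome 1. On mm10 with GENCODE M21 they lie at chr1:40074079-40125231, chr1:40225080-40317257, chr1:40429570-40465415, chr1:40465552-40500854 and chr1:40515362-40551705, a span of 478 kb. The sixth receptor gene between them, Il1rl2, encoding a receptor for interleukin-36, had 1.12 and 0.750 TPM from 49 and 32 reads. The decoy at one end and the interleukin-18 pair at the other were the abundant genes, with Il1r1 and Il1rl2 low between them. Only 136 bases separate the annotated end of Il1rl1 from the annotated start of Il18r1. The other members lie at chr16:26581704-26730117 (Il1rap, plus strand), chr7:141091175-141100572 (Sigirr, minus), chr9:119335934-119341411 (Myd88, minus), chr15:94543643-94581815 (Irak4, plus) and chrX:74013914-74023918 (Irak1, minus). Myd88, Irak4 and Il1rap share 290, 395 and 552 exonic bases with the opposite-strand genes Acaa1a, Twf1 and Gm20319, and the sources used here do not state whether counting used strand, so reads in those bases are uncertain.

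**Figure D2:**
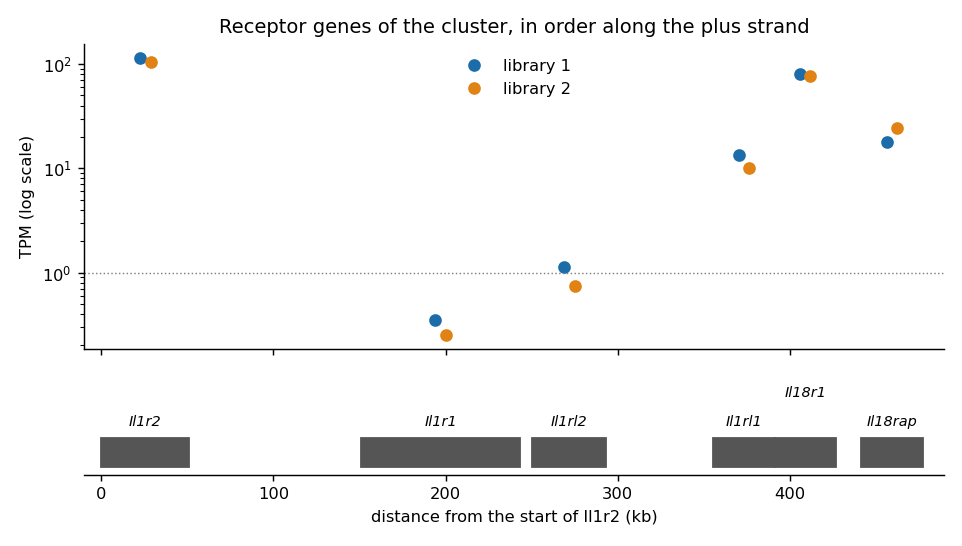
TPM (log axis) of the 6 protein-coding receptor genes of the chromosome 1 cluster in libraries 1 and 2, above a map of their annotated spans in kb from the start of Il1r2. Il1r2 is above 100 TPM in both libraries, Il1r1 is below 1 TPM in both, and Il18r1 is above 70 TPM in both.

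Transcript forms were sorted by whether the reading frame holds a whole transmembrane segment, found as the most hydrophobic window of 19 residues in the annotated protein. By that rule, coding transcripts without the segment held 10.5 ± 2.41% of Il1r2 TPM, 15.5 ± 6.46% of Il1rl1, 22.4 ± 0.129% of Il1rap, 14.0 ± 0.660% of Il18r1 and 20.7 ± 0.00224% of Sigirr (SD, n = 2 technical libraries). No such transcript of Il1r1 or Il18rap is annotated. Incomplete annotated frames and nonsense-mediated decay transcripts make up all of it for Il1r2 and Sigirr, so complete soluble frames with reads were found for Il1rl1, Il1rap and Il18r1. Short transcripts weigh more in TPM than in reads, and the shares of reads were lower for all 5 genes.

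Soluble ST2, the interleukin-33 decoy form of Il1rl1, has 337 residues, of which 328 are shared with the 567 of the membrane form. Its transcripts Il1rl1-203 and Il1rl1-205 together held 41.9 reads in library 1 and 33.8 in library 2, against 674 and 546 reads on the membrane transcripts. As a share of the gene's reads this is 5.81% (exact binomial interval 4.23 to 7.79) and 5.83% (4.09 to 8.10), and as a share of TPM 11.6% and 11.0%. The odds ratio of soluble to membrane reads between the libraries was 1.00 (two-sided Fisher's exact test, p = 1). The capitals of the soluble junction printed above are followed by an own untranslated end, and 1533 windows of 50 bases, the read length, occur only in soluble Il1rl1 transcripts, against 4114 only in membrane ones.

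The membrane transcripts Il1rl1-201 and Il1rl1-202 encode the same 567 residues and differ at their outer exons. Il1rl1-201 held 452 reads in library 1 and 166 in library 2, whereas Il1rl1-202 held 222 and 381. No window of 50 bases is found in Il1rl1-201 alone, the deposited posterior SDs of these counts lie between 93.5 and 95.3 reads, and the deposited TPM intervals of Il1rl1-201, 3.15 to 8.37 and 0.748 to 5.68, overlap, so which of the pair was used is not resolved. Their sum was 674 and 546 reads.

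Il1rl1 has a distal and a proximal start, and both promoter windows are printed because the soluble transcript Il1rl1-205 begins at the distal one, and Il1rl1-202 at the proximal one. The other soluble transcript, Il1rl1-203, begins within the first exon of Il1rl1-202. It held most of the soluble reads, 35.1 in library 1 and 33.8 in library 2. Each window covers 300 bases around a RefSeq start, most of them upstream (GRCm38.p6, plus strand), at chr1:40429320-40429619 and chr1:40439379-40439678. Capitals mark GATA, and TATC, which is GATA on the minus strand. RefSeq promoter windows were matched for 9 of the 10 genes.
Il1rl1 distal promoter: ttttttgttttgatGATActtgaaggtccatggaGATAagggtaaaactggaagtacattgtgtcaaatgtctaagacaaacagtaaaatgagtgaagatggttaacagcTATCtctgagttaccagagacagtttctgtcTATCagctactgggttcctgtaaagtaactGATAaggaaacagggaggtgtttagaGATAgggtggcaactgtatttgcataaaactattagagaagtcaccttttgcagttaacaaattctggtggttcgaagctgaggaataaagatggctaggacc
Il1rl1 proximal promoter: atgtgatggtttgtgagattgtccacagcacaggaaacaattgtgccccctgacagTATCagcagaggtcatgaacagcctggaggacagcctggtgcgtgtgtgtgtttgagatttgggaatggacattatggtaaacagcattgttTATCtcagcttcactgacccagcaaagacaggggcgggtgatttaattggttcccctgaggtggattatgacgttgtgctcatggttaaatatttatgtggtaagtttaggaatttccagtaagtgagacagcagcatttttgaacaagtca

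The distal window holds 4 GATA on the plus strand and 2 on the minus strand, and the proximal window holds 0 and 2. GATA on either strand is common, with a match in 57.9% of 32851 RefSeq promoter windows of this length, and a match is no evidence of binding. Reads assigned to the distal-start transcript were 6.80 in library 1, with a deposited posterior SD of 5.46, and 0 in library 2.

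Soluble Il1rap, which can join the decoy receptor away from the membrane, is encoded by Il1rap-206 with 360 residues, 350 of them shared with the 570 of the membrane chain. It held 41.7 reads in library 1 and 30.5 in library 2, against 288 and 271 reads on membrane transcripts. The share of the gene's reads was 12.6% (interval 9.33 to 16.8) and 9.92% (6.94 to 14.0), and the share of TPM 22.3% and 17.4%. The proportion did not differ detectably between the libraries (Fisher's exact test with Benjamini-Hochberg adjustment over 3 genes, adjusted p = 0.628, odds ratio 1.27). The longer membrane form Il1rap-202, with 307 residues after the segment in place of 192, held 2.80 and 4.24 reads.

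Il18r1 was the gene with the largest share of complete frames that end early. Soluble Il18r1-205 ends after 267 residues, before the transmembrane segment, and held 232 and 194 reads, or 8.21% (7.22 to 9.28) and 7.57% (6.60 to 8.69) of the gene's reads. Il18r1-203 and Il18r1-204 encode the same 372 residues, of which 367 are shared with the 537 of the long form, and they keep the transmembrane segment but have 25 residues after it in place of 190. That tail is shorter than the 29 residues of the IL1R2 decoy. Both short-tailed transcripts together held 470 reads in library 1 and 415 in library 2, or 16.6% (15.3 to 18.1) and 16.3% (14.8 to 17.7). In TPM, the short-tailed frames held 26.9% and 26.6% of the gene, and with the soluble frame 41.3% and 40.1%, against 24.8% and 23.8% of reads.

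Long-tailed Il18r1 frames, from Il18r1-202 (29.15 and 29.1 TPM) and Il18r1-206 (18.4 and 16.7 TPM), held 47.5 TPM in library 1 and 45.8 TPM in library 2. They still exceeded Il18rap-201, the membrane transcript of the accessory chain, 3.25-fold and 2.22-fold. How the reads divide among the 3 early-ending Il18r1 transcripts is uncertain, with deposited posterior SDs of 38.5 to 50.0 reads for each in library 1. In the soluble one alone occur 84 windows of 50 bases. Part of these lie at its untranslated first exon, which holds 36 bases of its own, and not at the junction that ends the frame. The short-tail class was set up after the transcripts were seen, and it is given as a description with no test.

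**Figure D3:**
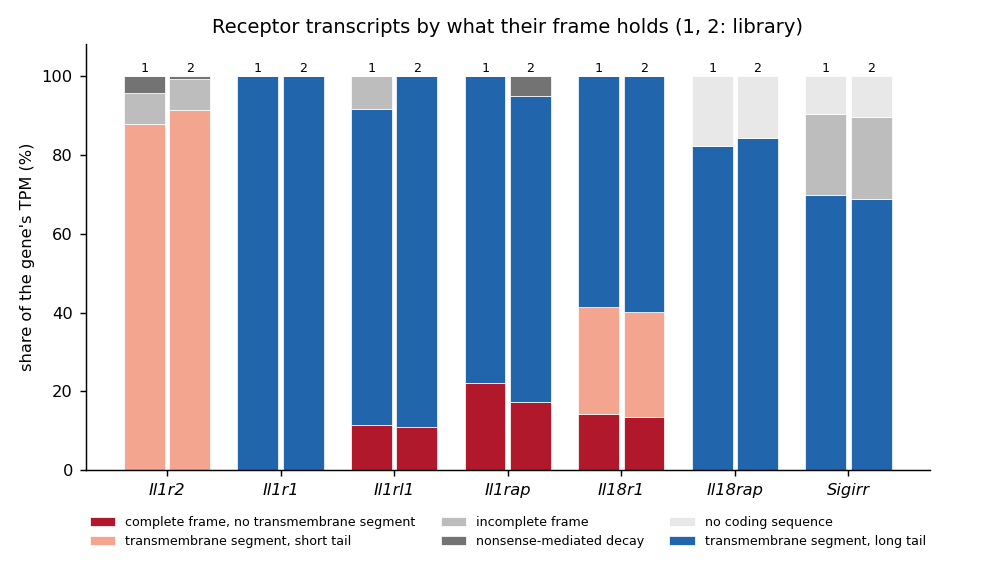
Share of each receptor gene's TPM (percent) by what the annotated frame holds, as stacked bars for library 1 (left) and library 2 (right). Il1r2 consists mainly of a frame with a segment and a short tail, and short-tailed and soluble frames together make up 41.3% and 40.1% of Il18r1.

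**Figure D4:**
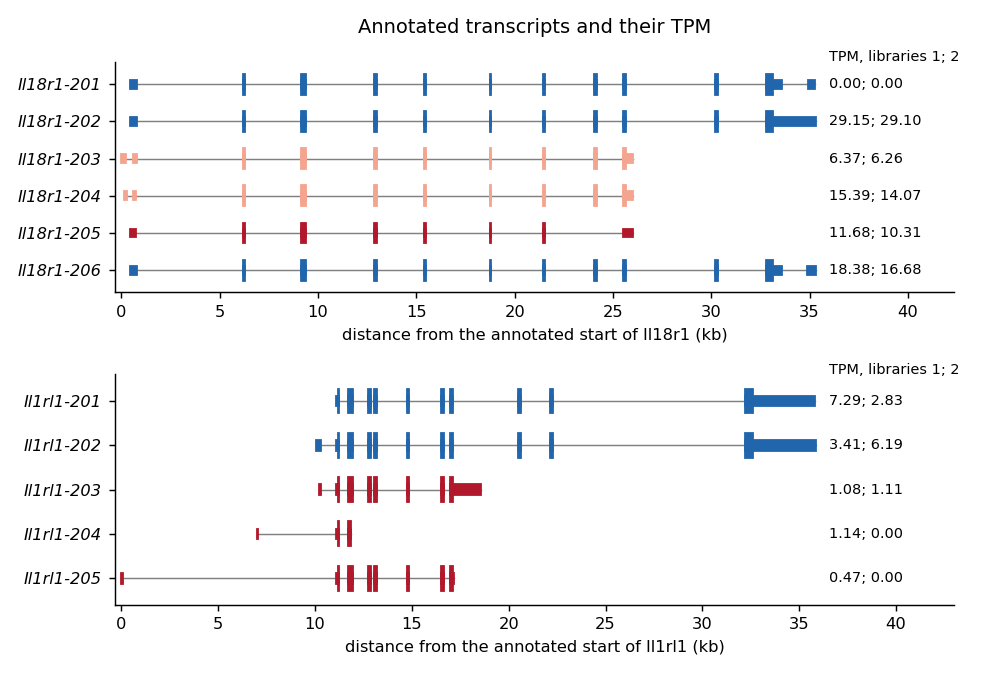
Annotated exons (thin boxes), coding parts (thick boxes) and introns (lines) of Il18r1 and Il1rl1 transcripts in kb from the annotated gene start, with TPM in libraries 1 and 2 at the right. Blue transcripts hold the segment and a long tail, orange ones a short tail, and red ones no whole segment, and the early-ending transcripts stop short of the last exons.

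Summed over the ligand-binding chains Il1r2, Il1r1, Il1rl1 and Il18r1, complete frames without a signalling tail held 136 TPM in library 1 and 127 TPM in library 2. Frames of Il1r1, Il1rl1 and Il18r1 with a signalling tail held 58.6 and 55.1 TPM. The ratio was 2.31 ± 0.00807 (SD, n = 2 technical libraries), and the Il1r2 membrane frame made up 101 and 95.2 TPM of the first sum. In reads the relation turned, with 2456 and 2169 reads on frames without a signalling tail against 2819 and 2506 on frames with one, a ratio of 0.868 ± 0.00412.

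The remaining receptor frames were of the long-tailed membrane kind where complete. Il18rap-201 held 14.6 and 20.6 TPM, and the noncoding transcript Il18rap-203 held 11.7% and 13.2% of the gene's TPM. Sigirr was spread over Sigirr-206 (38.7 and 38.3 TPM), Sigirr-203 (36.3 and 42.0 TPM) and Sigirr-201 (19.1 and 22.2 TPM). Sigirr-203 and Sigirr-201 encode the same 409 residues and Sigirr-206 encodes 387, with 251 residues after the segment in place of 273. The incomplete frame Sigirr-204 held 18.4 and 23.6 TPM from 71.6 and 86.9 reads. Of the adaptor and kinases, Myd88-201 held 53.4 and 58.6 TPM beside an incomplete frame, Myd88-202, with 8.60 and 7.84 TPM. Irak4-201 held 19.8 and 23.3 TPM, and the noncoding Irak4-203 held 3.30 and 2.80 TPM. Irak1-204 held 13.0 and 15.6 TPM, and Irak1-206, whose protein is 1 residue longer at 711 against 710, held 2.85 and 0.0700 TPM. The deposited posterior SDs of the Irak1-206 counts were 126 and 188 reads, beside 134 and 3.32 reads assigned to it, so Irak1-204 and Irak1-206 are not resolved. The transcript with the highest TPM was the same in both libraries for 8 genes, the exceptions being Il1rl1 and Sigirr.

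The libraries were compared gene by gene with an exact two-sided binomial test against library 1's 50.7% of reads, and p-values were adjusted by Benjamini-Hochberg over 17272 genes with 10 reads or more. At an adjusted p under 0.05 it called 24.3% of all tested genes, 11.6% as higher in library 1 and 12.7% as higher in library 2. All 10 members were tested, and 4 were called, 3 as higher in library 1 and 1 as higher in library 2. Il18rap showed the largest difference of the 4, with 916 reads in library 1 against 1207 in library 2, a log2 ratio of -0.44 (95% interval -0.57 to -0.32, adjusted p = 1.51e-10, exact binomial). Il1rl1 had a log2 ratio of 0.27 (0.11 to 0.43, exact binomial adjusted p = 0.00573). Il1r2 followed with 0.16 (0.07 to 0.26, exact binomial adjusted p = 0.00695). Il18r1 had 0.10 (0.02 to 0.18, exact binomial adjusted p = 0.0412), which was 0.0805 with library sizes scaled by TMM. Sigirr had -0.09 (-0.18 to -0.01, exact binomial adjusted p = 0.0806), which was 0.0420 with TMM. With edgeR's exact test at a preset dispersion of 0.01, none of the 10 was called, 491 genes were, and Il18rap had an adjusted p of 0.385. These differences arose between libraries of the same biological sample.

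Natural killer cells also bear the interleukin-18 receptor, and the summed level of their markers was 5.05 TPM in library 1 and 9.87 TPM in library 2. That is the direction of Il18rap and opposite to that of Il18r1, the other chain of the receptor (log2 ratio 0.10). Prf1 made up most of the sum (3.88 and 7.56 TPM), and Klrb1c had 1.10 and 1.99 TPM and Eomes 0.0700 and 0.320 TPM, neither past the binomial test. Prf1 and Klrb1c were the 2 of 5 markers that reached 1 TPM in both libraries, and Ncr1 and Klra8 were at 0 in both. The part of this in the Il18rap difference was not tested.

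**Figure D5:**
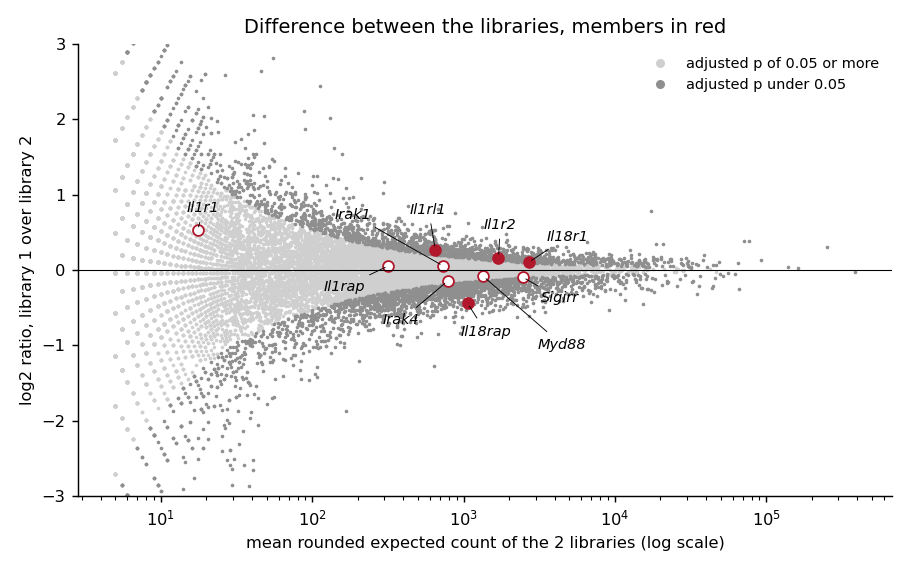
Log2 ratio of library 1 over library 2 for each tested gene against its mean rounded expected count (log axis), with the 10 members in red, filled where the adjusted p was under 0.05. Il18rap at -0.44 is the filled point below 0, and Il1rl1, Il1r2 and Il18r1 are above 0. The axis leaves out 280 genes with ratios beyond 3 in either direction.

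Only for Il1r2 did reads assigned to transcripts without the segment differ in proportion between the libraries beyond counting error. They were 110 of 1822 reads in library 1 and 52 of 1579 in library 2 (Fisher's exact test with adjustment over 5 genes, adjusted p = 0.000941, odds ratio 1.89). The nonsense-mediated decay transcript Il1r2-204 held 62.6 and 10.5 of these reads, with deposited posterior SDs of 32.8 and 14.2, and the incomplete frames held 47.1 and 41.9. The deposited TPM intervals of Il1r2-204, 1.35 to 10.6 in library 1 and 0.0304 to 3.85 in library 2, overlap. The Fisher test does not cover the assignment of reads, so this difference is not resolved. For the other 4 genes the adjusted p was 0.811, with odds ratios between 1.04 and 1.12.

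RNA of the cytokines that bind these receptors was at or near 0 for most of them. Of 11 ligands, ligand antagonists and the interleukin-18 binding protein, 2 reached 1 TPM in both libraries, and the list's median was 0.0350 TPM. The 2 were Il18bp, a secreted decoy for interleukin-18, with 3.92 and 6.31 TPM, and Il18 with 2.55 and 1.98 TPM. The reads of Il18bp were nearly level, at 101 in library 1 and 99.6 in library 2. Il1b and Il33 had no reads in either library, where 3 reads would give 0.340 and 0.205 TPM, and Il1f5, Il1f6 and Il1f10 had none either. The antagonist Il1rn had 0.580 and 0.240 TPM. The other receptors of the family were low too, with Il1rl2 the highest of 3 and Il1rapl1 the lowest (0 and 0.0300 TPM).

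The pathway below the receptors was largely present. Of 22 downstream signalling genes, 19 reached 1 TPM in both libraries and 13 reached 10 TPM, with a median of 15.7 TPM. Over all protein-coding genes, 46.2% reached 1 TPM and 29.5% reached 10 TPM in both. The ubiquitin-conjugating partners Ube2v1 (233 and 319 TPM) and Ube2n (264 and 260 TPM), with which TRAF6 builds ubiquitin chains, were the highest. Traf6 itself, the ubiquitin ligase bound by the IRAK kinases, had 11.2 and 10.8 TPM. Irak2, a further kinase of the complex, had 16.6 and 13.4 TPM, and the inhibitory Irak3 had 1.06 and 1.01 TPM. Tifa, the lowest of the list, was at 0 in both. All 10 genes of the NF-kappaB response list reached 10 TPM in both libraries, from Relb (11.0 and 11.2 TPM) to Nfkbia (388 and 397 TPM), the inhibitor that NF-kappaB induces. With no unstimulated sample, these levels do not say which signal they follow.

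Genes that mature and release interleukin-1 and interleukin-18 were largely present, while the sensor Nlrp3 was at 0. Of 8 listed, 6 reached 10 TPM in both libraries. The adaptor Pycard had 344 and 314 TPM, the protease Casp1 had 91.1 and 92.1 TPM and the pore-forming Gsdmd had 66.4 and 61.2 TPM. Nlrp3 had no reads in either library, where 3 reads would give 0.0914 TPM. Toll-like receptors, which share MYD88, were mixed, since 8 of 17 genes of that list reached 1 TPM in both libraries with a median of 1.15 TPM. Tlr1 was the highest (47.8 and 53.6 TPM), and Tlr9, Tlr11 and Tlr13 had no reads.

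Genes described with ST2 in tissue regulatory T cells reached 1 TPM in both libraries in 9 of 10 cases, with a median of 24.4 TPM. Batf (118 and 131 TPM) and Gata3 (90.4 and 104 TPM), transcription factors of that population, were the highest, Areg, a tissue-repair growth factor, had 1.38 and 1.76 TPM, and Pparg was the lowest (0.590 and 0.350 TPM). All 6 genes of follicular regulatory T cells reached 1 TPM, from Sostdc1 (1.07 and 1.13 TPM) to Icos (450 and 454 TPM). Cxcr5, their homing receptor, had 37.2 and 42.8 TPM, and Bcl6, their defining regulator, had 3.26 and 3.49 TPM.

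Other cells that bear these receptors were looked for by their markers. None of 5 neutrophil markers reached 1 TPM, their sum was 0.360 and 0.190 TPM, and S100a9, Ly6g and Retnlg were at 0 in both libraries, beside 115 and 104 TPM of Il1r2. None of 6 mast cell and basophil markers reached 1 TPM in both libraries, their sum was 1.11 and 1.73 TPM, and Mcpt4, Mcpt8 and Fcer1a were at 0. Of 6 markers of group 2 innate lymphoid cells, 3 reached 1 TPM and the sum was 11.9 and 13.5 TPM, mostly from Il9r (5.34 and 8.07 TPM) and Hpgds (4.50 and 4.07 TPM), while the defining cytokine Il13 was at 0 and Il5 had 0.160 and 0.170 TPM. None of 5 monocyte and macrophage markers reached 1 TPM in both, with sums of 1.36 and 3.68 TPM, and Cd14 was at 0. Of the stromal, endothelial and epithelial markers none of 5 did, with sums of 1.40 and 2.10 TPM. The part of the innate lymphoid markers in the Il1rl1 level was not tested.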

How the data were processed

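RNA-seq of 2 technical libraries of 1 biological sample was used. The authors deposited, per the file headers, an expected count (estimated reads, not whole), TPM, FPKM, isoform percent, effective length and a posterior mean with its SD and a TPM interval for each gene and transcript, on mm10 with GENCODE M21 per the deposited file listing. The interval bounds and posterior SDs are a deposited signal of how surely reads were assigned, at a level the sources used here do not state. A further deposited table holds a whole-number count per gene on GENCODE M4 (3478224 and 3475360 reads in libraries 1 and 2). The sources used here give no quantification tool, version or strandedness. Reads of 50 bases follow from length minus effective length.

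Levels are deposited TPM. Expected counts were rounded to whole numbers for tests and intervals (exact Poisson or exact binomial, 95%), which cover counting error only. Rows that name no annotated gene (0.142% and 0.186% of reads in libraries 1 and 2) were left out of totals. Genes with a summed count of 10 or more were compared between libraries with a two-sided exact binomial test, with 0.5 added for log2 ratios and Benjamini-Hochberg adjustment at 0.05. The code of the test was checked on simulated Poisson counts, which hold no spread beyond counting error. That check cannot say how the test behaves where technical libraries differ by more than counting error. Alternatives used edgeR 4.0.16 and DESeq2 1.42.0 (R 4.3.3); other steps used Python 3.11.15, scipy 1.17.1 and biopython 1.88. Transmembrane segments came from the translated principal GENCODE M21 transcript, as no protein table was used here, leaving out the first 35 residues, and a short tail has at most the 29 residues of Il1r2. Named transcripts hold 10% or more of their gene's TPM in either library or encode a shortened frame, apart from Il1rap-202 and Il18r1-201. Il18r1-201 had 0 reads in both libraries and served only as the reference sequence of the long form. From each gene list at least the highest and lowest gene is named. The members, lists and tests were chosen with earlier results of these data known. The result of a cell type marker list is not reported here.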

Additional observations from a re-analysis of the deposited data

How the results depend on the processing

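Counts of members past 1 TPM (9) did not change at 5 or 0.5 TPM, with FPKM, with annotated exon length or in either library alone. The Il1r2 to Il1r1 ratio of 373 became 99.8 in expected counts, which ignore length, and 236 in the whole-number table, where Il1r1 had 4 and 6 reads, and each library alone gave 328 and 418. The Il1r2 to Il1rap ratio of 16.4 became 5.32 in expected counts, 31.7 with annotated exon length and 10.4 in the whole-number table. Genes called between libraries numbered 4199, against 491 with edgeR's exact test at a dispersion of 0.01 and 1085 in the whole-number table, and members called numbered 4, against 0 and 2 (Il1rl1 and Il18rap). Of 70 alternative library ratios of members, 59 kept direction and call, 8 lost the call, 1 gained it (Sigirr with TMM) and 2 uncalled ones changed sign in the whole-number table (Il1r1 at -0.53 and Il1rap at -0.0413). Without a minimum count, 3 members were called. As shares of reads, transcripts without the segment held 4.67% of Il1r2, 6.14% of Il1rl1, 12.3% of Il1rap, 7.89% of Il18r1 and 5.26% of Sigirr, and short-tailed Il18r1 frames 16.4%, against 26.7% of TPM. Frames without over with a signalling tail went below 1, at 0.868 in reads against 2.31 in TPM. Among protein-coding transcripts only, the shares were 20.3% for Il1rap and 23.0% for Sigirr. Counting complete frames only, an alternative chosen after the data were seen, gave 0% for Il1r2 and Sigirr and 19.8% for Il1rap. The cause of these moves was not tested beyond length, which the read shares leave out. Listed genes at 1 TPM or more (69 of 97 entries in 10 lists) stayed within 1.5 times of that number at 5 TPM and in either library alone. No paired analysis was possible because there is 1 group.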
